A study of Mus musculus with 16 samples.

Results

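The genes described are the 10 NF-kB subunit and inhibitor genes Nfkb1, Nfkb2, Rel, Rela, Relb, Nfkbia, Nfkbie, Nfkbid, Nfkbiz and Tnfaip3, taken by name from a table of 54456 genes. All 10 had enough counts to be among the 15675 genes tested. They were measured by bulk RNA sequencing in T cells of OT-I mice, whose T cells carry a transgenic receptor for an ovalbumin peptide bound to MHC class I and are mostly CD8 cells. The 16 libraries form 4 groups of 4. These are lymph node (LN) cells of lean mice on standard chow, LN cells of mice on a high-fat diet (HFD, 60% of calories from fat), and visceral fat (VAT) cells of lean and of HFD mice. The time on diet was 8 weeks in every group. The labels give no age, no genotype beyond OT-I, and no pairing of LN and VAT from the same animal. The cells are called freshly isolated in the sample labels, while the series' description has them kept in culture overnight before the sort, so any effect of culture on these inducible genes was not tested. The column names carry an unexplained term, Neg-OVA, in all groups. The labels call the libraries biological replicates without saying how animals were used, so the p-values below rest on library-to-library spread alone, part of which may be technical.

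NF-kB is a family of dimeric transcription factors. In resting T cells the classical dimers, made of Rela, c-Rel (the product of Rel) and the p50 protein that is cut from the Nfkb1 product, are held in the cytoplasm by I-kappa-B proteins, and signals from the antigen receptor, TNF receptors or cytokine receptors release them by I-kappa-B degradation. In the slower non-classical arm, the Nfkb2 product is cut to a form that pairs with Relb. Several members are themselves known NF-kB targets: the I-kappa-B gene Nfkbia and the ubiquitin-editing enzyme gene Tnfaip3 (A20) are rebuilt after activation and switch the signal off, and Nfkb2 and Relb are induced by the classical dimers.

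Because these genes can be controlled by NF-kB itself, their promoters were searched for the kappa-B consensus, which is GGG, a purine, any 2 bases, 2 pyrimidines and CC, on both strands and with overlapping matches kept. RefSeq windows of 300 bases (250 before to 50 after a gene's start, build GRCm38.p6) were held for 7 of the 10 genes, and Nfkb1, Nfkbiz and Relb had none. A match was found in at least 1 window of 6 of these 7 genes, and in 8 of their 12 windows. Windows 2 and 3 of Nfkb2 overlap, and the only match of window 3 is also counted in window 2. Over all 32851 windows 8.46% held a match, and 1.22% held 2 or more. Of the 27025 genes with a window, 9.55% had a match in at least 1. The last 150 bases before the start are shown, 5′ to 3′ on the gene's strand, for 3 of the genes whose RNA was higher in VAT (Tnfaip3, Nfkbia, Nfkb2), for Rel as a gene with matches and no call, and for Rela as the gene without a match. Capitals mark the matches.

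Tnfaip3 (chr10:19015411-19015560, minus strand): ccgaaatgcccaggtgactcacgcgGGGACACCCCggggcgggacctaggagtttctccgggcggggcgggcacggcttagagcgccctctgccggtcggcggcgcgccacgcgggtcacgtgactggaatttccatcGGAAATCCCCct
Nfkbia (chr12:55492648-55492797, minus strand): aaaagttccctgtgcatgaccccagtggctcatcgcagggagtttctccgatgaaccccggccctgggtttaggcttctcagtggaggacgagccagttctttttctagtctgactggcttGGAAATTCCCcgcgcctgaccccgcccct
Nfkb2 (chr19:46304587-46304736, plus strand): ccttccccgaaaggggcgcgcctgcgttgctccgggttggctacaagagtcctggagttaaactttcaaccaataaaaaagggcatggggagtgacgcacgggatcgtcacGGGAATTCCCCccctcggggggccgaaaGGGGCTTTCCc
Rel (chr11:23770970-23771119, minus strand): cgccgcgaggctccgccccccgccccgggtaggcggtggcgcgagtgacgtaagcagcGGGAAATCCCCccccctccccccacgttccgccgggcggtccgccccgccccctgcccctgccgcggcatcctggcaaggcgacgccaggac
Rela (chr19:5637391-5637540, plus strand): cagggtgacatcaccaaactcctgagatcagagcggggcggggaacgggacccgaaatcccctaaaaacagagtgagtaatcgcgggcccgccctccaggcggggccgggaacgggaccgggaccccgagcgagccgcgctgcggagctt

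The Tnfaip3 matches began 125 and 12 bases before the start, and its other window held none. The Nfkbia match began 29 bases before the start. In Nfkb2, overlapping matches at 39 and 38 bases and a further match at 11 bases before the start lie in the most upstream of its 3 windows. Matches were present in Rel, Nfkbie and Nfkbid as well, which did not pass the test in any comparison below. A match is a description of letters and not a bound site, and no binding was measured here.

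Levels are CPM, counts scaled to library totals normalised by TMM, and a group is given as mean ± SD over its 4 libraries. Library totals were 40212388 to 65957407 counts, so 3 counts were worth 0.0437 to 0.0804 CPM. Libraries did not all hold the same genes. Among genes whose median over a group's remaining libraries reached 10 CPM, 11.4% and 11.5% were at 3 counts or fewer in HFD VAT replicates 1 and 3 and 13.3% in lean VAT replicate 1, against 0.818% to 5.45% in the other libraries. Markers of T and CD8 cells were high in every library (8 genes summing to 7110 to 9753 CPM), but the CD8 chain genes went in opposite ways. Cd8a had 665 ± 112 CPM in LN and 2077 ± 215 CPM in VAT on HFD, and 718 ± 127 and 1840.4 ± 145 CPM in lean mice, and Cd8b1 had 2072 ± 133 and 1228 ± 119.8 CPM on HFD, and 2058 ± 99.7 and 1368 ± 279.7 CPM in lean mice. B cell markers (10 genes) summed to 1582 to 3049 CPM in LN and 85.6 to 360 CPM in VAT. Macrophage and monocyte markers (9 genes) summed to 0.022 to 6.07 CPM in LN and 27.5 to 131 CPM in VAT, with C1qa at 0 in all groups. Most of the VAT sum was Cd68, with means of 60.9 CPM on HFD and 38.8 CPM in lean mice. Each other gene of this set had group means of at most 6.42 CPM (C1qb in HFD VAT, with no count in 3 of the 4 libraries). Dendritic cell markers (7 genes) summed to 0.194 to 22.3 CPM in LN and 35.1 to 110.0 CPM in VAT. Itgax (means of 64.9 CPM on HFD and 32.6 CPM in lean mice) and Xcr1 (23.1 and 24.7 CPM) made up most of the VAT sum. NK markers (5 genes) summed to 13.8 to 123 CPM in LN and 321 to 637 CPM in VAT, with the NK gene Ncr1 at 0 in all groups but lean VAT. The NK sum in VAT was mostly Klre1 (463 ± 82.7 CPM on HFD and 369.5 ± 71.6 CPM in lean mice). Klrb1c was also higher on average in VAT than in LN (50.2 against 0.84 CPM on HFD and 21.3 against 0 CPM in lean mice). So was Tyrobp (12.8 against 0.859 CPM on HFD and 18.7 against 1.91 CPM in lean mice). Eomes was lower on average in VAT than in LN (25.2 against 44.9 CPM on HFD and 21.5 against 47.5 CPM in lean mice), with overlap. CD4 and regulatory T cell markers (5 genes) summed to 25.3 to 99.3 CPM in LN and 119 to 314 CPM in VAT. In VAT, Ctla4 and Ikzf2 made up most of the sum. Cd4 and Foxp3 were near 0 there, with means of 0.0228 and 0.00569 CPM on HFD and 0.00602 and 0 CPM in lean mice. Cd40lg was lower in VAT, with means of 27.7 CPM in LN and 0 in VAT on HFD, and 28.5 and 3.65 CPM in lean mice. Adipocyte, fibroblast and endothelial markers (9 genes) summed to 71.2 to 205 CPM in LN and 29.5 to 98.4 CPM in VAT. Most of this sum was Pecam1, with means of 159 and 65.7 CPM in LN and VAT on HFD, and 113 and 47.0 CPM in lean mice. Each other gene of the set had group means of at most 3.05 CPM (Col1a1 in lean VAT). Other cell types of these marker sets, myeloid, NK and B cells included, can use the genes described here too. The part of these markers in the tissue results below was not tested. In bulk RNA, more cells that use a gene and more RNA of it per cell cannot be told apart.

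The comparison of VAT with LN asks how OT-I cells from fat differ from those of the lymph node within a diet. On both diets the negative regulator Tnfaip3, the feedback inhibitor Nfkbia and the non-classical pair Nfkb2 and Relb were higher in VAT. On HFD 4 of the 10 genes rose in VAT and 0 fell, where 2.68% of the 15675 genes tested rose and 1.88% fell. In lean mice the same 4 rose and 0 fell, against 2.12% and 0.919% of all genes. All 10 fitted changes were above 0 in both comparisons, with medians of 1.40 and 1.55 on the log2 scale, where 46.4% and 49.8% of all genes were above 0 and the medians of all genes were -0.098 and -0.003. For 5 of the 10, every one of the 8 VAT libraries was above every one of the 8 LN libraries, which held for 3.39% of the genes tested. These 5 are the called 4 and Nfkbiz. The 10 genes were chosen with earlier results of these libraries known, so their counts are not independent evidence of a direction. Without the 3 VAT libraries with many missing genes, the same 4 genes passed on both diets, with adjusted p-values of at most 0.0482. On HFD the 4 calls held without each of the 8 libraries in turn.

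**Figure D1:**
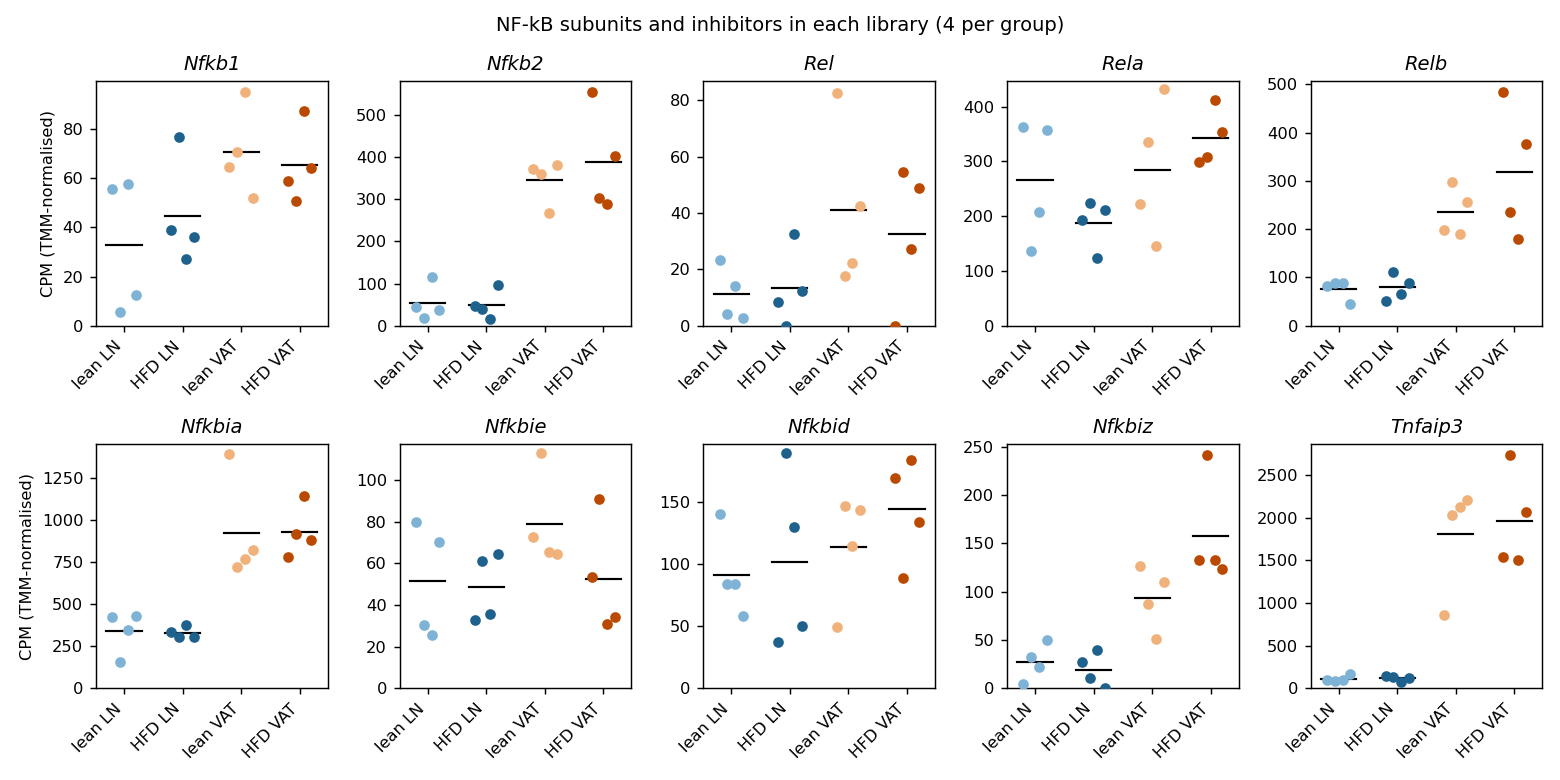
TMM-normalised CPM of each gene (vertical axis, linear, a scale of its own for each gene) in every library of the 4 groups, with a bar at the group mean. The orange VAT points of Nfkb2, Relb, Nfkbia, Nfkbiz and Tnfaip3 lie above all blue LN points, while those of the other 5 genes mix with them.

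Among the subunits, Nfkb2, which encodes the p100 precursor, showed the larger of the 2 called changes. In HFD LN its 4 libraries had 47.0, 40.7, 15.5 and 95.8 CPM, and in HFD VAT 554, 304, 289 and 404 CPM. In lean LN they had 44.8, 19.0, 115 and 36.9 CPM, and in lean VAT 372, 361, 268 and 382 CPM. The LN libraries varied several-fold among themselves, yet the lowest VAT library was above the highest LN library on either diet. The ratio of group means was 7.80 on HFD (log2 change 2.96, SE 0.57, adjusted p = 0.00734, edgeR's quasi-likelihood test) and 6.42 in lean mice (2.68, SE 0.563, adjusted p = 0.0159). The lean call was lost without lean LN replicate 1 (adjusted p = 0.0609) or lean LN replicate 4 (adjusted p = 0.0652). In the GENCODE annotation of GRCm38 the gene body of Nfkb2 overlaps 299 bases of Psd and part of a non-coding gene, both on the opposite strand. Whether counting used strand is not given in the sources used here, so reads of the shared bases cannot be assigned with certainty. Nfkb1 likewise overlaps a predicted gene on its own strand.

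Relb encodes the partner of the processed Nfkb2 product. HFD LN libraries had 50.5, 112, 65.9 and 89.1 CPM and HFD VAT libraries 485, 235, 180 and 376 CPM. Lean LN libraries had 82.4, 87.5, 87.5 and 44.6 CPM and lean VAT libraries 198, 298, 189 and 256 CPM. All VAT libraries were above all LN libraries, with lean LN replicate 4 the lowest of the 16. The means differed 4.02-fold on HFD (log2 change 2.01, SE 0.352, adjusted p = 0.00356) and 3.12-fold in lean mice (1.64, SE 0.348, adjusted p = 0.017). In lean mice the call was lost without LN replicate 4 (adjusted p = 0.0605) or VAT replicate 2 (adjusted p = 0.0535), with log2 changes of 1.45 and 1.5.

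The classical subunits did not pass the test. Rela, the main activating subunit, had 193, 224, 123 and 211 CPM in HFD LN and 298, 308, 412 and 353 CPM in HFD VAT. Those libraries did not overlap, and the fitted change of 0.87 (SE 0.356) gave an adjusted p of 0.202. In lean mice Rela ranged from 135 to 362 CPM in LN and from 145 to 431 CPM in VAT, with a log2 change of 0.09 (95% interval -0.66 to 0.85). On HFD 6 of the 10 genes had all VAT libraries above all LN libraries, and in lean mice 5, where 7.21% and 7.24% of all genes did. Rela is the gene that was counted on HFD alone.

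Nfkb1, the source of p50, was 44.7 ± 21.9 CPM in HFD LN and 65.3 ± 15.7 CPM in HFD VAT, and 32.9 ± 27.6 and 70.7 ± 18.1 CPM in lean LN and VAT. The lean LN libraries split into 55.8 and 57.5 CPM in replicates 1 and 3 and 5.68 and 12.5 CPM in replicates 2 and 4. Its libraries overlapped between tissues on both diets (adjusted p = 0.764 on HFD and 0.516 in lean mice). Rel, which encodes c-Rel, was low and uneven: HFD LN libraries had 8.27, 0, 32.6 and 12.3 CPM and HFD VAT libraries 0.0436, 54.4, 27.3 and 49.0 CPM. The HFD VAT library near 0 is replicate 1, which is among the libraries with many missing genes. Lean LN libraries had 23.3, 4.29, 13.9 and 2.73 CPM and lean VAT libraries 82.8, 17.5, 22.2 and 42.4 CPM. The intervals for Rel were wide (log2 change 1.3, from -2.14 to 4.74, on HFD, and 1.90, from -1.60 to 5.39, in lean mice), so a change of several-fold could not be seen at this spread. Without the 3 libraries with many missing genes, the Rel change on HFD was 1.95 (adjusted p = 0.557).

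The inhibitors fall into the classical cytoplasmic I-kappa-B genes (Nfkbia, Nfkbie), the nuclear ones (Nfkbid, Nfkbiz) and Tnfaip3. Nfkbia encodes I-kappa-B-alpha, which holds the classical dimers in the cytoplasm. Its HFD LN libraries had 332, 303, 377 and 302 CPM, and those of HFD VAT had 777, 915, 1139.9 and 880 CPM. Lean LN libraries had 420, 155, 345 and 431 CPM and lean VAT libraries 1389, 719, 766 and 819 CPM. The tissues did not overlap on either diet. The means stood at 2.83-fold on HFD (log2 change 1.5, SE 0.289, adjusted p = 0.00748) and 2.73-fold in lean mice (1.45, SE 0.289, adjusted p = 0.0116). Fitted on the lean groups alone, without the HFD groups' share in the estimate of spread, the lean change had an adjusted p of 0.111. The highest lean VAT library, replicate 1, is among those with many missing genes; without these 3 libraries the lean log2 change was 1.15 (adjusted p = 0.0482).

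Nfkbie, which encodes I-kappa-B-epsilon, overlapped between all groups, from 25.6 to 113 CPM over the 16 libraries. Its log2 changes were 0.11 (95% interval -0.90 to 1.12) on HFD and 0.61 (-0.40 to 1.63) in lean mice. Nfkbia thus passed the test and Nfkbie did not, and the difference between these genes was not tested.

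Neither nuclear inhibitor passed the test. Nfkbid, whose product I-kappa-B-NS takes part in T cell cytokine induction, had 102 ± 71.3 CPM in HFD LN and 144 ± 42.5 CPM in HFD VAT, and 91.5 ± 34.7 and 113 ± 45.4 CPM in lean LN and VAT, with overlap on both diets (adjusted p = 0.724 and 0.961). Nfkbiz, whose product I-kappa-B-zeta acts as a co-regulator of a subset of NF-kB targets, had 27.6, 10.5, 39.2 and 0 CPM in HFD LN and 132, 241, 133 and 123 CPM in HFD VAT. In lean LN it had 4.79, 32.2, 21.9 and 49.6 CPM and in lean VAT 127, 87.6, 50.8 and 110.0 CPM. All VAT libraries were above all LN libraries, by the narrow gap of 49.6 to 50.8 CPM in lean mice. The change missed the threshold on HFD (log2 change 3.03, 95% interval 0.38 to 5.67, adjusted p = 0.199) and in lean mice (1.79, -0.74 to 4.31, adjusted p = 0.64). With other tools the HFD change passed: DESeq2 gave an adjusted p of 0.0395 (log2 change 3.05) and limma voom with quality weights 0.0491 (5.75).

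Tnfaip3, whose product A20 edits ubiquitin chains on signalling proteins of the pathway, had the greatest fitted change among the 10 genes on both diets. HFD LN libraries had 146, 132, 69.1 and 115 CPM and HFD VAT libraries 1541, 2734, 1502 and 2068 CPM. Lean LN libraries had 96.0, 83.7, 95 and 171 CPM and lean VAT libraries 860, 2029, 2125 and 2209 CPM. The lowest VAT library, lean replicate 1, was still well above the highest LN library. The log2 change was 4.09 on HFD (SE 0.374, adjusted p = 2.05e-05, the 26th smallest p among all genes) and 4.02 in lean mice (SE 0.373, adjusted p = 3.18e-05, the 20th smallest). The call held in each alternative run, including the fit without the 3 libraries with many missing genes, where the changes were 4.36 and 4.22.

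**Figure D2:**
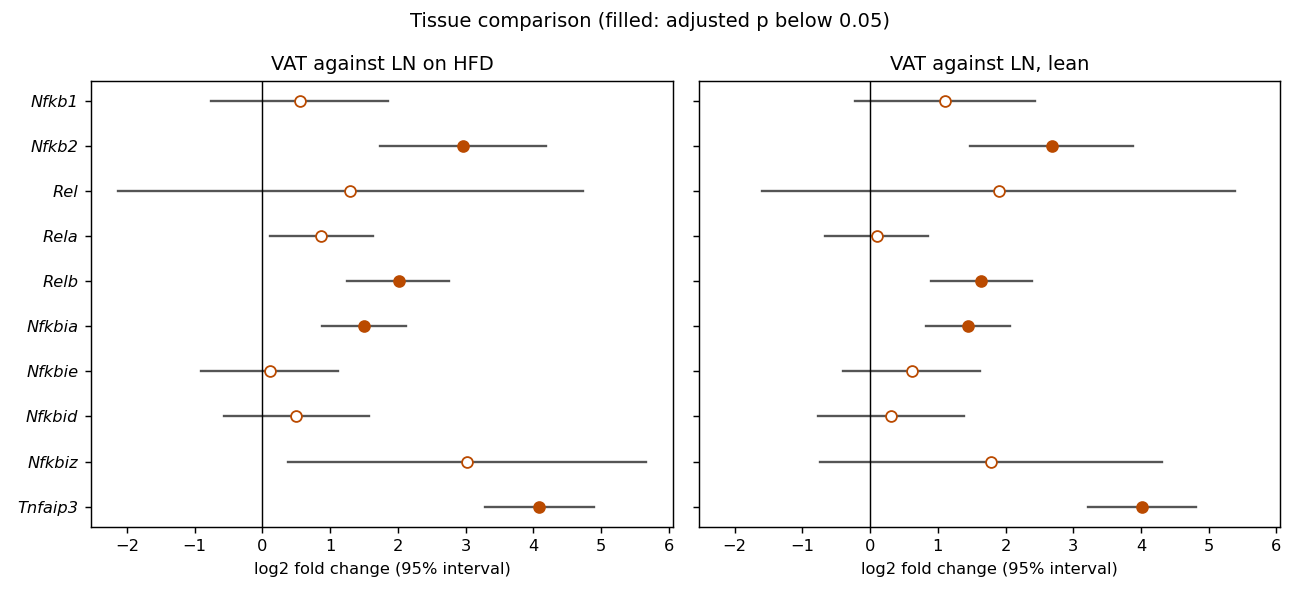
Fitted log2 fold change of VAT against LN (horizontal axis) with its 95% interval for each of the 10 genes, on HFD at the left and in lean mice at the right. Filled points mark adjusted p below 0.05. Tnfaip3, Nfkb2, Relb and Nfkbia are filled in both panels, and the intervals of Rel and Nfkbiz are the widest.

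To see how the regulators moved against the main activating subunit, ratios of raw counts were taken within each library, where library size and normalisation cancel. Gene length does not cancel in the ratio itself, but it is the same in every library. The ratio of Tnfaip3 to Rela was 0.614 ± 0.0978 in HFD LN and 5.89 ± 2.20 in HFD VAT, and 0.455 ± 0.145 and 7.43 ± 4.92 in lean LN and VAT. Its lowest VAT value was 3.64 and its highest LN value 0.758. The ratio of Nfkb2 to Rela was 0.252 ± 0.143 and 1.17 ± 0.49 on HFD, and 0.231 ± 0.217 and 1.37 ± 0.464 in lean mice, again without overlap between tissues. The ratio of Relb to Rela overlapped between tissues on HFD, where LN libraries reached 0.536 and the lowest VAT library was at 0.437, and also in lean mice, where LN libraries reached 0.647 and VAT libraries began at 0.594. The ratio of Nfkbia to Rela was 1.89 ± 0.798 and 2.71 ± 0.209 on HFD with overlap, and 1.29 ± 0.251 and 3.89 ± 2.20 in lean mice without overlap (1.67 the highest in LN and 1.90 the lowest in VAT). Within the non-classical and classical precursors, the ratio of Nfkb2 to Nfkb1 was 1.24 ± 0.995 and 6.25 ± 2.48 on HFD without overlap, and 2.28 ± 1.13 and 5.26 ± 1.88 in lean mice with overlap. The ratio of Nfkbiz to Rela was 0.127 ± 0.141 and 0.474 ± 0.211 on HFD, and 0.124 ± 0.0928 and 0.359 ± 0.147 in lean mice, without overlap between tissues within a diet. The ratio of Nfkbid to Rela overlapped on both diets, with 0.583 ± 0.433 in LN and 0.42 ± 0.118 in VAT on HFD and 0.394 ± 0.186 and 0.445 ± 0.246 in lean mice. These ratios are given as a description, with no test.

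**Figure D3:**
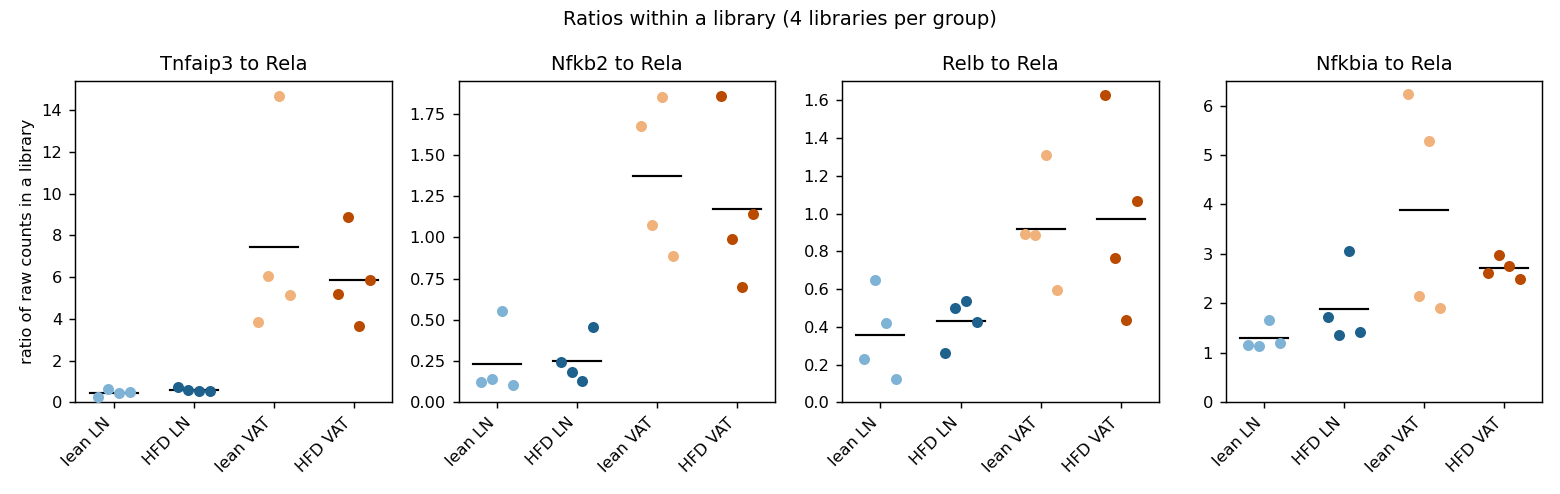
Ratio of raw counts within a library (vertical axis, no unit) for Tnfaip3, Nfkb2, Relb and Nfkbia over Rela, with points for libraries and a bar at the group mean. The Tnfaip3 ratio reaches at most 0.758 in LN and at least 3.64 in VAT, while the Relb ratio overlaps between tissues.

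The diet comparisons ask whether HFD changed these genes within a tissue. No change passed the test. In VAT, 0 of the 10 genes were called with edgeR's quasi-likelihood test, where edgeR called 0.0574% of all genes (9). None of the 10 had an unadjusted p under 0.05, which 1266 of the 15675 genes had. DESeq2 called 769 genes and limma voom 32, with 0 of the 10 among either. HFD and lean libraries of VAT overlapped for each gene. The log2 differences, HFD minus lean, ran from -0.59 for Nfkbie to 0.75 for Nfkbiz, and the smallest p was that of Relb (319 ± 138 against 236 ± 51.2 CPM; difference 0.44, 95% interval -0.29 to 1.17, adjusted p = 0.969). For Tnfaip3 the interval of the diet difference in VAT was -0.59 to 0.83 (1961 ± 576 against 1806 ± 635 CPM) and for Nfkbia -0.60 to 0.62 (928 ± 153 against 923 ± 313 CPM). For both genes the bounds of the diet difference lie under their fitted tissue changes. For Nfkbiz, with 157 ± 55.8 against 93.7 ± 32.8 CPM, the interval was -1.72 to 3.21, so a sizeable diet difference was not detectable at this spread.

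In LN, 0 of the 10 genes were called for diet and none had an unadjusted p under 0.05, where 0% of all genes passed with edgeR, although 529 genes had an unadjusted p under 0.05 and DESeq2 called 236 genes, none of them among the 10. The log2 differences ran from -0.50 for Rela (188 ± 44.9 CPM on HFD against 265 ± 113 CPM in lean mice, 95% interval -1.26 to 0.26) to 0.44 for Nfkb1 (-0.87 to 1.75). For the genes called between tissues, the fitted diet differences there were 0.05 for Tnfaip3 (-0.65 to 0.76), -0.04 for Nfkbia (-0.65 to 0.57), 0.07 for Relb (-0.66 to 0.80) and -0.12 for Nfkb2 (-1.25 to 1.02). The intervals bound these differences, most loosely for Nfkb2, and equal levels were not shown. Whether the diet effect differed between VAT and LN was tested directly, and 0 of the 10 genes were called against 0.0191% of all genes (3). Again none of the 10 had an unadjusted p under 0.05, which 965 of all genes had, and none was among the 635 genes called by DESeq2 or the 6 called by limma voom. Rela had the smallest p, with a difference of 0.78 (-0.30 to 1.85, adjusted p = 0.986), and for Tnfaip3 the difference was 0.07 (-0.94 to 1.07). The size of the tissue change was thus not shown to differ between diets for any of the 10 genes.

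**Figure D4:**
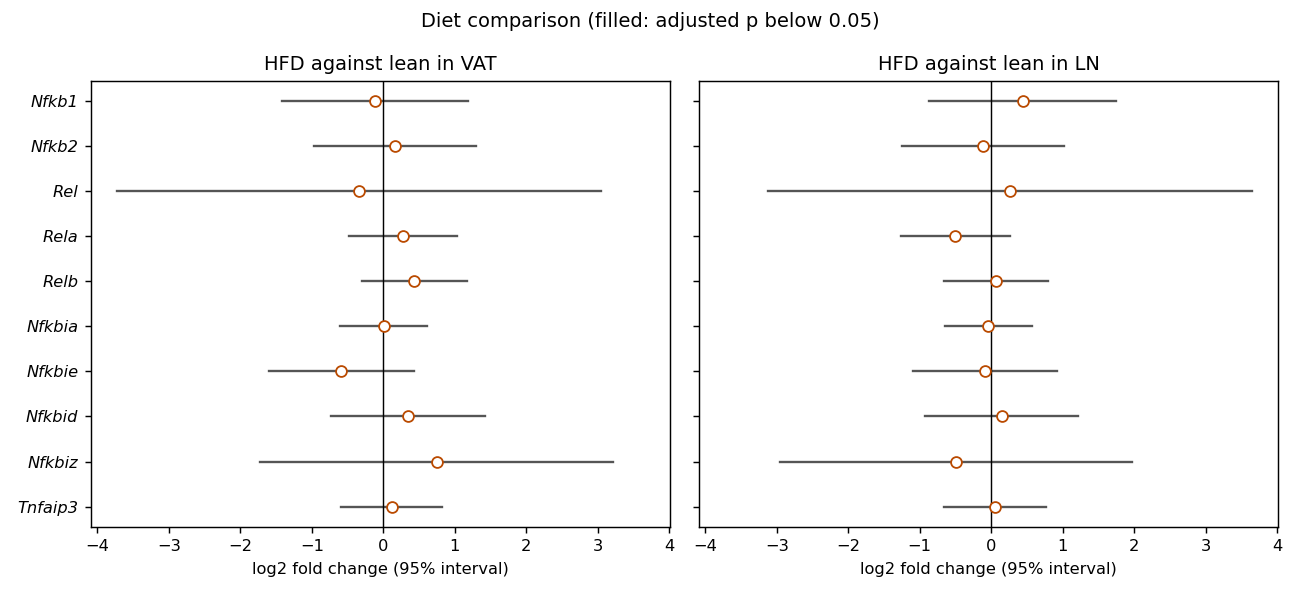
Fitted log2 fold change of HFD against lean (horizontal axis) with its 95% interval for each of the 10 genes, in VAT at the left and in LN at the right. No point is filled (adjusted p below 0.05), and all intervals cross 0.

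Ordered by level, the 4 groups fell into a high pair and a low pair for Tnfaip3, Nfkb2, Relb, Nfkbia and Nfkbiz: HFD VAT had the highest mean and lean VAT the second, and both LN groups followed. Neighbours within a tissue overlapped in every case, and the step from VAT to LN did not. Nfkb1 and Rel had lean VAT highest and Nfkbid HFD VAT, with overlap at every step.

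The other genes of the pathway were read from 4 lists. For comparison with the list counts, 2.68% of all genes tested rose and 1.88% fell on HFD, and 2.12% rose and 0.919% fell in lean mice. Of 23 kinases, adaptors and ubiquitin ligases that carry signals to NF-kB, all tested, 1 rose and 1 fell on HFD and 0 rose and 1 fell in lean mice, with median log2 changes of 0.37 and -0.09. Birc3, which encodes the ubiquitin ligase cIAP2 and is itself a known NF-kB target, rose 3.46-fold on HFD (225 ± 59.4 against 65.1 ± 32.0 CPM, adjusted p = 0.0455), with 168 ± 76.6 against 110.0 ± 42.0 CPM in lean mice (adjusted p = 0.72 with edgeR and 0.0358 with limma voom). The HFD call was lost without any 1 of the 8 libraries compared (adjusted p from 0.051 to 0.121). Traf5, an adaptor of TNF receptors, fell on HFD from 145 ± 50 to 49.0 ± 8.26 CPM (adjusted p = 0.0296), a call that was lost without HFD LN replicate 1 or 2 or HFD VAT replicate 1, 2 or 3 (adjusted p up to 0.0856). In lean mice Traf5 had 187 ± 50.8 CPM in LN and 84.9 ± 44.5 CPM in VAT (adjusted p = 0.154), and passed with DESeq2 (0.011), with limma voom (0.0237) and without lean VAT replicate 1 (0.0375). Prkcq, which encodes the kinase PKC-theta that links the antigen receptor to NF-kB, fell in lean mice from 614 ± 126 to 304 ± 37.9 CPM (adjusted p = 0.00521). On HFD it had 593 ± 90.3 CPM in LN and 423 ± 75.4 CPM in VAT (adjusted p = 0.158).

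Of 16 other inhibitors and terminators of NF-kB signalling, 0 rose and 1 fell on each diet, with medians of 0.38 and 0.35. The gene that fell was Peli1, a ubiquitin ligase known to restrain c-Rel in T cells. It went from 405 ± 57.1 CPM in LN to 227 ± 33.1 CPM in VAT on HFD (adjusted p = 0.0426) and from 489 ± 87.3 to 211 ± 58.7 CPM in lean mice (adjusted p = 0.00521). The HFD call was lost without any 1 of the 8 libraries (adjusted p from 0.0607 to 0.123), and the lean call held without each. The further I-kappa-B relatives Nfkbib and Bcl3, singled out after their values were seen, did not pass with edgeR. Bcl3, a nuclear member of the family, had 27.1, 0.0196, 34.8 and 0 CPM in HFD LN and 245, 126, 163 and 146 CPM in HFD VAT. In lean mice it had 8.10, 0.341, 9.17 and 0 CPM in LN and 291, 96.8, 82.8 and 143 CPM in VAT. The VAT libraries were above the LN libraries on both diets, and the uneven LN values came with adjusted p-values of 0.368 and 0.262. In lean mice Bcl3 passed with DESeq2 (adjusted p = 0.0369) and on both diets with limma voom (0.0381 on HFD and 0.0435 in lean mice). Nfkbib, which encodes I-kappa-B-beta, overlapped between tissues on both diets (84.4 ± 24.8 in LN and 135 ± 37.3 CPM in VAT on HFD, adjusted p = 0.375, and 61.7 ± 15.6 and 147 ± 74.8 CPM in lean mice, adjusted p = 0.111). In lean mice it passed with DESeq2 (log2 change 1.15, adjusted p = 0.0242).

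Of 23 receptors and ligands that feed the pathway, 17 were tested. Since a gene low in LN enters the test through VAT, or the reverse, the counts describe these 17 genes and not the list as a whole. On each diet 3 rose and 1 fell, with a median log2 change of 1.73 in both. Tnfrsf1b, which encodes TNF receptor 2, rose 4.37-fold on HFD (482 ± 97.7 against 111 ± 31.9 CPM, adjusted p = 0.0052) and 3.32-fold in lean mice (362 ± 107 against 109 ± 62.5 CPM, adjusted p = 0.0232). Its lean call was lost without lean LN replicate 3 or 4 or lean VAT replicate 2, 3 or 4 (adjusted p up to 0.0831). Tnfrsf18, which encodes the costimulatory receptor GITR, rose 4.24-fold on HFD (adjusted p = 0.00157) and 4.36-fold in lean mice (adjusted p = 0.00164), without overlap. Il18rap, a chain of the interleukin-18 receptor, rose 3.31-fold on HFD, with overlapping libraries (adjusted p = 0.0498), and 11.3-fold in lean mice (194 ± 72.8 against 17.1 ± 2.97 CPM, adjusted p = 0.000822). The HFD call of Il18rap was lost in 6 of 8 fits with a library left out, all but those without HFD LN replicate 4 or HFD VAT replicate 3 (adjusted p up to 0.123). Cd27, a TNF receptor family member of naive and memory T cells, fell in lean mice from 521 ± 19.5 to 241 ± 60.6 CPM (adjusted p = 0.00236). On HFD it had 521 ± 85.2 CPM in LN and 359.9 ± 49.5 CPM in VAT, without overlap (adjusted p = 0.121). Cd40lg, the CD40 ligand mostly made by CD4 T cells, fell on HFD from 27.7 CPM in LN to no count in VAT, which makes it at least 390-fold lower against 3 counts per library. In lean mice it had 28.5 ± 3.8 CPM in LN and 3.65 ± 4.01 CPM in VAT, without overlap, and did not pass with edgeR (adjusted p = 0.36) but did with limma voom (0.0068).

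Of 26 textbook NF-kB targets of lymphocytes, 25 were tested, and 9 rose and 0 fell on each diet. Their median log2 changes were 1.90 on HFD and 2.50 in lean mice, and the libraries did not overlap, with VAT above, for 14 and 16 of them. Of all genes tested, 2.68% and 2.12% rose, and 7.21% and 7.24% had all VAT libraries above all LN libraries. The list was chosen with earlier results of these libraries known, so its count is not independent evidence of a direction. Many of these genes also respond to interferon or to AP-1. Cxcl10, a chemokine gene that interferon induces too, had no count in HFD LN and 2225 ± 230.1 CPM in HFD VAT, at least 37100-fold higher against 3 counts per library. In lean mice it had 0 to 10.6 CPM in LN and 824 to 1393 CPM in VAT (adjusted p = 0.0346). The lean call was lost in 7 of 8 fits with a library left out (adjusted p up to 0.0815) and kept without lean LN replicate 3, the library at 10.6 CPM. The survival genes Bcl2a1a, Bcl2a1b and Bcl2a1d are near-identical copies, so their split of reads is uncertain. Bcl2a1d, the copy with the most counts, had 94.2 ± 26.6 against 12.2 ± 4.27 CPM on HFD (adjusted p = 0.000709) and 93.1 ± 38.1 against 9.74 ± 1.69 CPM in lean mice (adjusted p = 0.000461). Bcl2a1a rose 10.3-fold and Bcl2a1b 8.70-fold on HFD (adjusted p = 0.00452 and 0.00855). Il2ra, the alpha chain of the interleukin-2 receptor, had no count in lean LN and 8.84 to 44.6 CPM in lean VAT (adjusted p = 0.0127, at least 434-fold higher against 3 counts per library). On HFD it overlapped between tissues, with 0 to 25.4 CPM in LN and 3.64 to 46.9 CPM in VAT (adjusted p = 0.678). For diet in VAT, diet in LN and the difference between diet effects, edgeR called 0 of the 81 list genes, with 5, 6 and 9 at an unadjusted p under 0.05, against 1266, 529 and 965 of the 15675 genes tested. DESeq2 called 3 list genes in each, against 769, 236 and 635 of all genes, and limma voom 2, 0 and 0, against 32, 3 and 6.

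**Figure D5:**
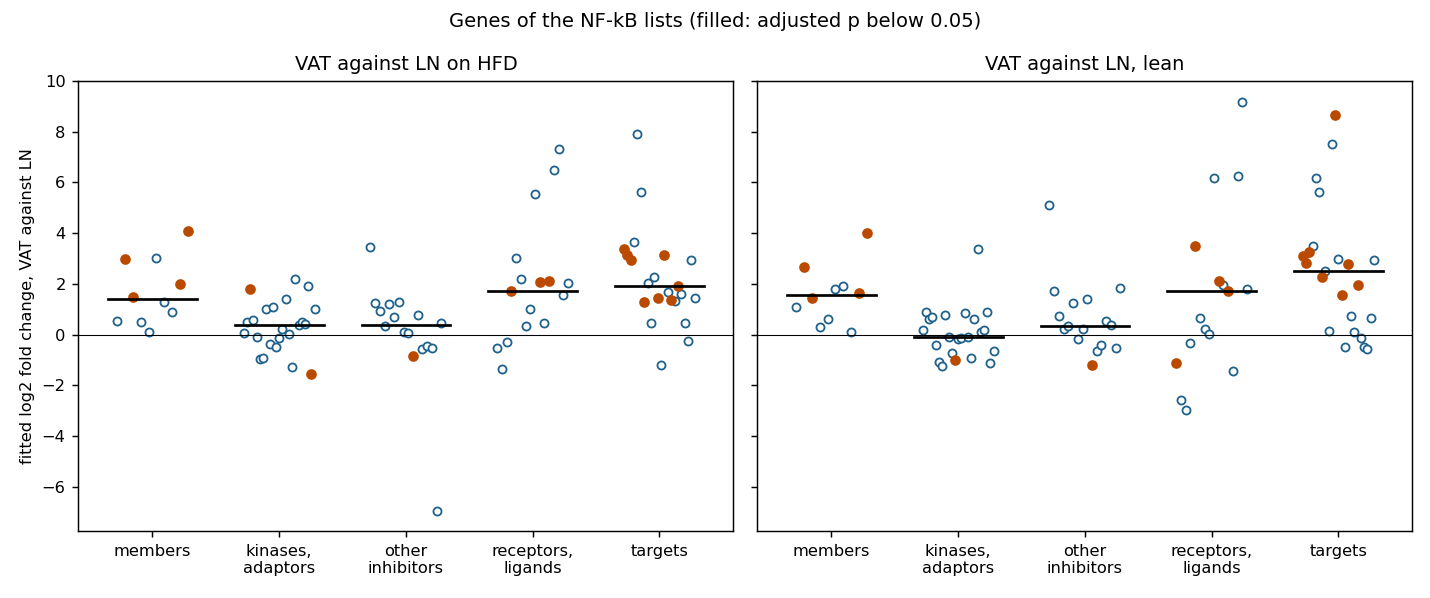
Fitted log2 fold change of VAT against LN (vertical axis) for the 10 described genes and for the tested genes of the 4 lists, on HFD at the left and in lean mice at the right. Filled points mark adjusted p below 0.05 and bars mark medians (1.90 and 2.50 for targets, 0.37 and -0.09 for kinases and adaptors); genes with no count in a whole group enter the medians and are not drawn.

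Likeness to Tnfaip3 and Nfkbia was measured over all 16 libraries as the root mean square difference of centred log2(CPM + 1) values among 4417 genes with a mean of at least 50 CPM. Among the genes closest to Tnfaip3 were the NKG2D receptor gene Klrk1 (difference 0.562) and the GTPase gene Tgtp2 (0.571). Tgtp2 had group means of 127 and 123 CPM in HFD and lean LN and 1606 and 1131 CPM in HFD and lean VAT. Closest to Nfkbia were the tetraspanin gene Cd82 (0.350), the AP-1 subunit gene Junb (0.361) and the proteasome activator gene Psme1 (0.363). Junb had 443 and 478 CPM in HFD and lean LN and 1657 and 1861 CPM in HFD and lean VAT. None of the genes named here is an NF-kB subunit or inhibitor, and the 16 libraries share their split by tissue, so the measure is a description with no test.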

How the data were processed

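The authors deposited raw counts per gene, as whole numbers without normalisation, for 16 libraries (4 per group), and every column was read. The submitters' processing notes name kallisto 0.42.4, DESeq2 and GRCh38, a human build, while the gene names are those of mouse. How kallisto estimates became whole counts is not given in the sources used here. The labels name more than 1 kit and sequencer, and a growth protocol for another cell type, so chemistry and read length are uncertain. Counts come from amplified cDNA, and floors cover counting error only.

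Genes passing filterByExpr (15675) were tested with edgeR 4.0.16 in R 4.3.3 (TMM, robust quasi-likelihood test fitted on all 4 groups, common dispersion 1.52), with Benjamini-Hochberg adjustment over all genes tested and a threshold of 0.05. SE is the log2 change over the square root of F, and 95% intervals use the t distribution with the fit's degrees of freedom. The script was tested on simulated counts with less spread than these libraries, which checks that it runs correctly and not its power here. Alternatives were RLE and upper quartile normalisation, other filters, DESeq2 1.42.0, limma 3.58.1 voom, only the groups compared, replicate blocks and left-out libraries. The chi-square over degrees of freedom was 292 to 1100.0 in replicate pairs, so no 2 libraries were alike. Members and lists were chosen with earlier results of these data known. For each list, comparison and direction, up to 3 called genes with the largest change and at least 5 CPM are named, and some genes that the rules name are not reported here. Promoters are from RefSeq on GRCm38.p6, and their strand was checked against transcripts.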

Additional observations from a re-analysis of the deposited data

Results flagged for a closer look

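Levels of the 10 genes were screened in 40 groups of 4 libraries for a library whose gap to its nearest neighbour took more of the group's range than Dixon's 95% critical value. By chance about 1 in 20 groups is marked, and 6 of 40 were. Tnfaip3 stood apart in lean LN replicate 4, which was high at 170.55 CPM, and in lean VAT replicate 1, which was low at 859.91 CPM. Nfkbia was high in lean VAT replicate 1, at 1388.6 CPM. That library is the one in which 13.3% of the group's expressed genes were at 3 counts or fewer. Relb was low in lean LN replicate 4, at 44.574 CPM, Nfkbie was high in lean VAT replicate 2, at 113.02 CPM, and Nfkbiz was high in HFD VAT replicate 2, at 240.82 CPM. Lean LN replicate 4 was thus marked both for Tnfaip3 and for Relb, and without it the lean tissue call of Relb was lost (adjusted p = 0.0605), while that of Tnfaip3 was kept.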

How the results depend on the processing

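For tissue on HFD, 4 members were called in each setting run except DESeq2 and limma voom, which called 5 with Nfkbiz. The count of all genes called there was 714, against 441 with no filter and 2578 with DESeq2. For tissue in lean mice, 4 members were called, 2 with the replicate block, 3 with only the groups compared (Nfkbia lost, adjusted p = 0.111) and 2 to 4 when a library was left out, and the count of all genes was 476, against 1569 with DESeq2 and 1350 with limma voom. Of the members, Tnfaip3 in lean mice kept its call in every setting run, while Nfkb2 (adjusted p = 0.0508) and Relb (0.0525) lost theirs with the replicate block. For diet, no member was called in any setting. The count of all genes called for diet in VAT was 9, against 2 with no filter, 769 with DESeq2, 32 with limma voom, 0 with only the groups compared, 1 with the replicate block, 65 without the 3 VAT libraries with many missing genes, and 3 to 40 with a library left out. For diet in LN it was 0, against 236 with DESeq2, 3 with limma voom and 0 to 1 with a library left out. For the difference between diet effects it was 3, against 1 each with upper quartile normalisation, no filter and the 5 CPM filter, 635 with DESeq2, 6 with limma voom, 0 with the replicate block, 55 without the 3 VAT libraries and 0 to 26 with a library left out. Alternatives for the list genes were added after seeing the data. On HFD, the calls among kinases and adaptors were 2, against 0 with no filter or without the 3 VAT libraries, 1 with the replicate block, 4 with DESeq2 and 0 to 1 with a library left out. Those among other inhibitors were 1, against 0 with RLE, no filter, the replicate block or a library left out, and 2 with limma voom or without the 3 VAT libraries, and those among receptors and ligands 4, against 7 with DESeq2. In lean mice the kinases and adaptors had 1, against 2 with DESeq2, 3 with limma voom and 1 to 2 with a library left out. The other inhibitors had 1, against 4 with DESeq2, 2 with limma voom and 0 with only the groups compared. The receptors and ligands had 4, against 8 with DESeq2 and 9 with limma voom, and the targets 9, against 4 with no filter or the replicate block, 14 with limma voom, 5 with only the groups compared and 5 to 8 with a library left out. The cause of these differences was not tested.

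Whether replicate numbers pair the libraries is not given in the labels. Over the compared groups, same-numbered libraries deviated together with correlations of -0.0997 to 0.049 across 8709 genes. Such low correlations, at this spread between libraries, cannot exclude shared animals. Because no pairing is labelled, the block is given here alone. RLE normalisation moved the median of all genes in the difference between diet effects from -0.113 to -0.0117. All 10 members kept a positive tissue change under the other scalings, and 9 of 10 did with some single libraries left out. The spread between libraries limits Rel and Nfkbiz most, since their intervals span several-fold changes.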
